A study of Oryza sativa with 6 samples.

Results

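MYB80, CSA, PTC1 and TIP3 are 4 transcriptional regulators of rice anther development, of which MYB80 and CSA belong to the MYB family and PTC1 and TIP3 carry a PHD finger. They were picked by name as regulators that act in the late tapetum, with earlier results of these data known. Each was found by its annotation identifier among the 94013 rows of the deposited table. All 4 were in the table and all 4 passed the filter of at least 1 FPKM in at least 3 libraries. The pairing of symbols with identifiers was not checked against an annotation. Anther RNA of rice (Oryza sativa) came from 6 libraries, 3 of the dmd1 mutant and 3 of the wild type (labelled "dmd1 wild-type"). All plants were 3 months old, and their anthers ran from tetrads to early microspores, per the design text. The libraries of a genotype are called biological replicates there. Neither the dmd1 allele nor the number of plants per library was given in the labels, and DMD1 was not itself analysed here.

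The tapetum is the innermost layer of the anther wall. It feeds the developing microspores, makes the lipid precursors of the outer pollen wall (exine), and then breaks down by programmed cell death. A cascade of bHLH and MYB factors drives it, with UDT1, TDR, TIP2 and EAT1 among the bHLH members in rice. In Arabidopsis, the counterpart of MYB80 lies upstream of MALE STERILITY1 (MS1), the counterpart of PTC1, and activates genes of exine synthesis. Rice PTC1 is needed for timely tapetal death and for pollen wall formation. CSA, named for the carbon starved anther phenotype of its mutant, controls sugar supply to the anther and activates the sugar transporter gene MST8. TIP3 is a nuclear PHD-finger protein that binds TDR.

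Of the 4 regulators, PTC1 had the only change in mean of more than a log2 unit, with a lower mean in dmd1, but its values varied widely among libraries and it did not pass the test. MYB80, CSA and TIP3 had nearly the same mean in dmd1 and in wild type. A call needed both an adjusted p below 0.05 and an absolute log2 change of 1 or more (limma, with Benjamini-Hochberg adjustment over all 25474 tested rows). None of the 4 was called, against 6.71% of all tested rows (1709 rows). PTC1 alone reached that fold without regard to p, against 9.77% of rows. None had an adjusted p under 0.05 at any fold, against 13.0% of rows, none had an unadjusted p under 0.05, and none had dmd1 and wild-type libraries without overlap, against 38.4% of rows. With 4 genes, counts of 0 beside shares of 6.71% and 13.0% say little about the regulators as a set.

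**Figure D1:**
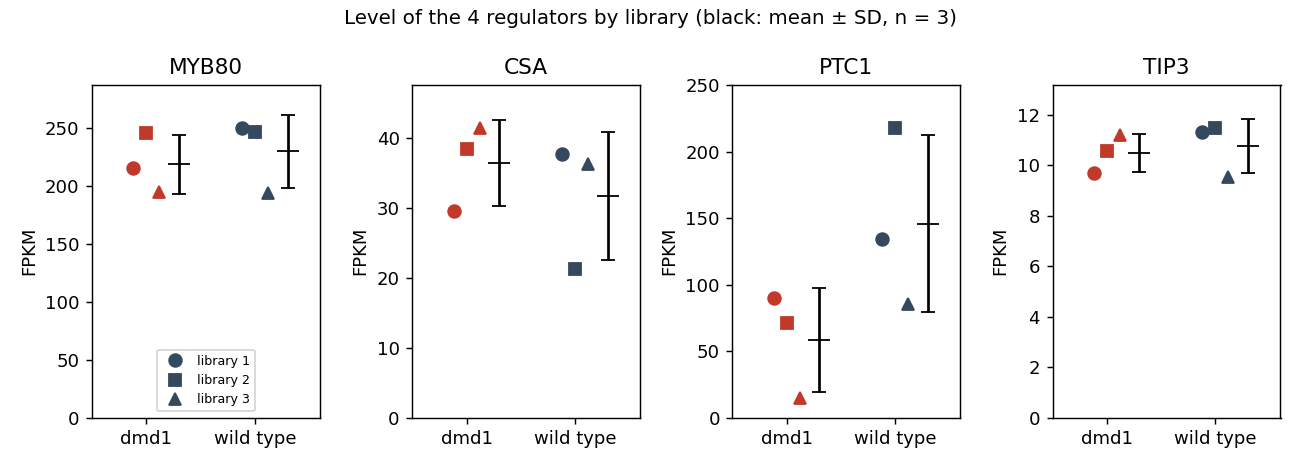
FPKM (fragment abundance per unit of transcript length, scaled to the mapped fragments of the library) of each regulator in the 3 dmd1 libraries (red) and the 3 wild-type libraries (dark blue), with the mean ± SD in black beside each group. The dmd1 and wild-type values overlap in every panel, and PTC1 has the widest spread, with 14.6 FPKM in dmd1 library 3 and 218 FPKM in wild-type library 2.

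The MYB gene MYB80 (OS04G0470600) had the highest level of the 4 regulators. It stood at 215, 245 and 195 FPKM in dmd1 libraries 1, 2 and 3, against 250, 246 and 194 FPKM in wild-type libraries 1, 2 and 3. The lowest and the highest of the 6 values were both from wild type, so the wild-type range enclosed all dmd1 values. The mean was 218 ± 25.3 FPKM in dmd1 and 230 ± 31.4 FPKM in wild type (SD, n = 3 each), and the mean log2 level was above that of 98.0% of tested rows. The log2 change of FPKM + 1 was -0.07 ± 0.17 (SE, limma adjusted p = 0.806), with a 95% interval of -0.47 to 0.33. On a linear scale this interval runs from 0.722 to 1.26 times the wild-type level, so a doubling or halving of MYB80 lay outside it. The sign of the small change turned with equal FPKM totals, with quantile normalization, with library weights and without dmd1 library 3.

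CSA (OS01G0274800), the MYB gene of anther sugar supply, had a mean of 36.4 ± 6.16 FPKM in dmd1 and 31.7 ± 9.13 FPKM in wild type (SD, n = 3 each). Its values were 29.5, 38.4 and 41.4 FPKM in dmd1 libraries 1, 2 and 3, against 37.6, 21.2 and 36.3 FPKM in wild-type libraries 1, 2 and 3. Wild-type library 2 was the lowest of the 6 and dmd1 library 1 the next lowest, while the other 4 libraries lay within 36.3 to 41.4 FPKM. The log2 change was 0.22 ± 0.25 (SE, limma adjusted p = 0.590), with a 95% interval of -0.38 to 0.83. This difference rested on wild-type library 2, since without that library the log2 change of CSA was -0.03 (limma adjusted p = 0.906).

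PTC1 (OS09G0449000), the PHD-finger gene of tapetal death, varied more than the other 3 regulators. It was at 90.0, 71.2 and 14.6 FPKM in dmd1 libraries 1, 2 and 3, against 135, 218 and 85.9 FPKM in wild-type libraries 1, 2 and 3. The genotypes overlapped by a single pair, as dmd1 library 1 stood slightly above wild-type library 3. The highest dmd1 value was 6.15 times the lowest, and the highest wild-type value was 2.54 times the lowest. The mean was 58.6 ± 39.2 FPKM in dmd1 and 146 ± 66.6 FPKM in wild type (SD, n = 3 each). The log2 change was -1.55 ± 0.70 (SE, limma unadjusted p = 0.0668, adjusted p = 0.190), with a 95% interval of -3.24 to 0.14, or 0.106 to 1.10 times the wild-type level. In these bulk samples of anthers from tetrads to early microspores, fewer tapetal cells, another mix of stages and less PTC1 RNA per cell cannot be told apart.

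PTC1 combined a large change with a large spread. Its log2 change was larger in absolute value than that of 95.9% of tested rows, and its residual SD of 1.08 log2 units was exceeded by 464 rows (1.82%), where the median row had 0.25. Without dmd1 library 3 the log2 change was -0.76 ± 0.40 (limma adjusted p = 0.275), with the remaining dmd1 values at 90.0 and 71.2 FPKM. Without dmd1 library 1 it was -2.03 ± 0.72 (limma adjusted p = 0.159). PTC1 stayed below 0 in all 17 alternative fits and was called in none of them. Its smallest log2 change in them was -0.74, with library weights. Deviations from the genotype means in dmd1 library 1 and wild-type library 2 correlated at 0.49 across all tested rows, which are not independent replicates. This was the highest value of any dmd1 and wild-type pair, so the same data singled the pair out. Dmd1 library 3 and wild-type library 2 correlated at -0.48, and deviations within a genotype sum to 0, so such values are tied to each other. No label names a batch for dmd1 library 1 and wild-type library 2. Dmd1 library 1 minus wild-type library 2 gave a log2 difference of -1.26 for PTC1, and the other 4 libraries gave -1.69. The first rests on 1 library per genotype and has no test.

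TIP3 (OS03G0716200), the PHD-finger partner of TDR, had the lowest level and the smallest spread of the 4. It was at 9.69, 10.5 and 11.2 FPKM in dmd1 libraries 1, 2 and 3, against 11.3, 11.5 and 9.53 FPKM in wild-type libraries 1, 2 and 3. Wild-type libraries held both the lowest and the highest value, as for MYB80. The mean was 10.5 ± 0.75 FPKM in dmd1 and 10.8 ± 1.07 FPKM in wild type (SD, n = 3 each). The log2 change was -0.03 ± 0.13 (SE, limma adjusted p = 0.888), with a 95% interval of -0.35 to 0.28, or 0.786 to 1.21 times the wild-type level. Its residual SD was smaller than that of 86.4% of tested rows. The sign turned in 6 alternative fits, with log2 changes of at most 0.15.

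**Figure D2:**
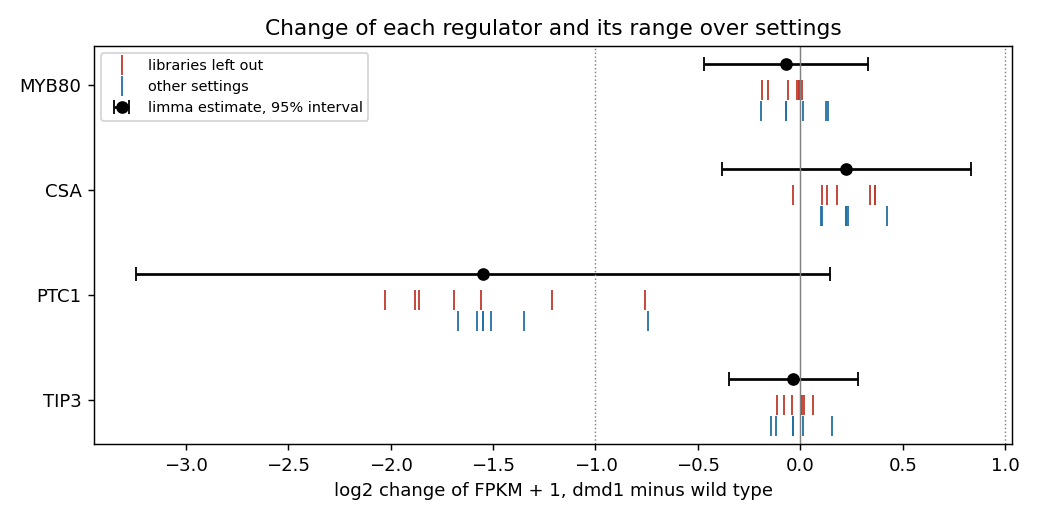
Log2 change of FPKM + 1, dmd1 minus wild type, for each regulator, with the limma estimate and its 95% interval in black, the fits with libraries left out as red ticks and the other settings as blue ticks. Dotted lines mark a log2 change of 1 in either direction. MYB80, CSA and TIP3 have intervals that lie between the dotted lines, whereas the interval of PTC1 runs from -3.24 to 0.14.

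The median log2 change over all tested rows was 0.12, so a row with no change in these values lies slightly below the typical row. Relative to this median the log2 changes were -0.19 for MYB80, 0.10 for CSA, -1.67 for PTC1 and -0.15 for TIP3. With equal FPKM totals the median of all rows was 0.29, and the changes relative to it were -0.16, 0.13, -1.64 and -0.14 in the same order of genes. With median-of-ratios scaling they were -0.21, 0.09, -1.69 and -0.16, and with quantile normalization -0.04, 0.17, -1.57 and -0.17. The signs relative to the median were thus the same under these 3 scalings, although those of MYB80 and TIP3 on the scale as fitted were not.

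FPKM is scaled by transcript length, so levels can be set side by side between genes. In dmd1 the order of mean FPKM was MYB80 (218), PTC1 (58.6), CSA (36.4) and TIP3 (10.5), and in wild type it was MYB80 (230), PTC1 (146), CSA (31.7) and TIP3 (10.8). In dmd1 the ranges of PTC1 and CSA overlapped, because PTC1 was at 14.6 FPKM in dmd1 library 3, where CSA was at 41.4 FPKM. In wild type the ranges of MYB80 and PTC1 overlapped instead, since PTC1 at 218 FPKM in wild-type library 2 exceeded MYB80 at 194 FPKM in wild-type library 3. Within each of the 6 libraries MYB80 was nevertheless above PTC1.

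Ratios between 2 regulators within a library depend hardly at all on the scaling between libraries, and they show whether the regulators differ in their response. All 6 pairs were compared with an exact two-sided permutation test of 3 against 3 libraries, which cannot give a p below 0.1. The log2 ratio of MYB80 to PTC1 was 1.25, 1.77 and 3.65 in dmd1 libraries 1, 2 and 3, against 0.89, 0.18 and 1.16 in wild-type libraries 1, 2 and 3. The genotypes did not overlap, although dmd1 library 1 exceeded wild-type library 3 only narrowly. MYB80 was thus on average 4.66 times PTC1 in dmd1 and 1.67 times PTC1 in wild type (geometric means of FPKM + 1). The log2 difference was 1.48 (exact permutation p = 0.1, the smallest possible; adjusted p = 0.4 over the 6 pairs).

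The other ratios with PTC1 pointed the same way without a full separation of genotypes. The log2 ratio of PTC1 to TIP3 averaged 2.03 ± 1.47 in dmd1 and 3.55 ± 0.55 in wild type (SD, n = 3 each), and that of CSA to PTC1 averaged -0.34 ± 1.58 in dmd1 and -2.11 ± 1.07 in wild type (exact permutation p = 0.2 for each, adjusted p = 0.4). These 3 comparisons share the PTC1 values and are not independent. Without dmd1 library 3 the log2 difference was 0.77 for MYB80 to PTC1, -0.68 for PTC1 to TIP3 and 0.89 for CSA to PTC1. The ratio of MYB80 to TIP3 was steadier, with log2 values of 4.34, 4.41 and 4.01 in dmd1 libraries 1, 2 and 3, against 4.35, 4.31 and 4.21 in wild-type libraries 1, 2 and 3. MYB80 thus stood at 19.1 times TIP3 in dmd1 and 19.6 times TIP3 in wild type, a log2 difference of -0.04 (exact permutation p = 0.9). The ratios of MYB80 to CSA and of CSA to TIP3 differed by -0.30 and 0.26 (exact permutation p = 0.5 and 0.7), and each sign turned without wild-type library 2.

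**Figure D3:**
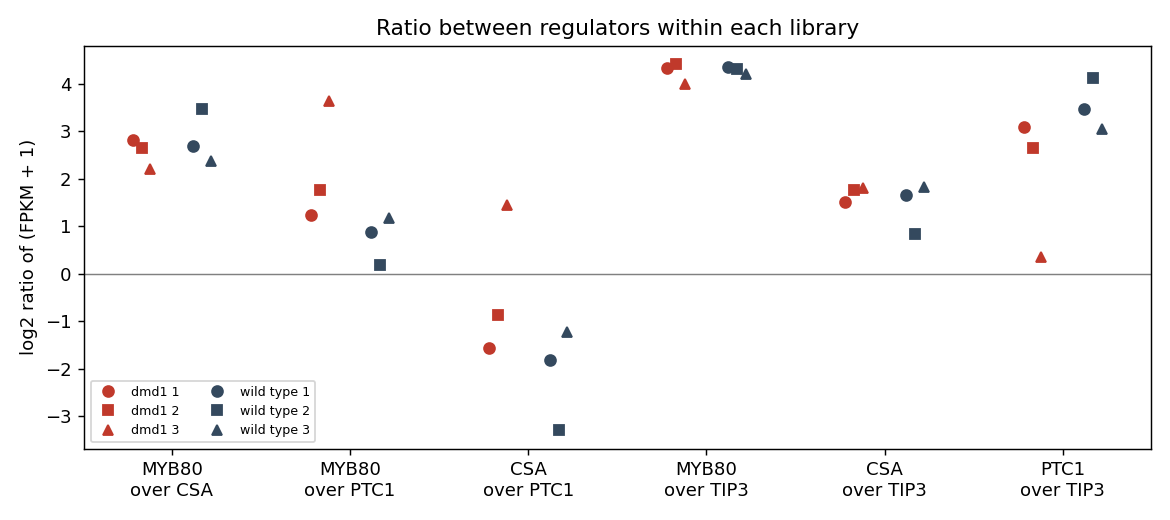
Log2 ratio of FPKM + 1 between each pair of regulators within each dmd1 library (red) and each wild-type library (dark blue), with a marker shape for each library number. The dmd1 points lie above all wild-type points for MYB80 over PTC1 (lowest dmd1 value 1.25, highest wild-type value 1.16), whereas the points for MYB80 over TIP3 all lie between 4.01 and 4.41.

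The bHLH factors and GAMYB, which act upstream of or beside these regulators in the rice tapetum, moved unequally. Of 5 tested genes, 1 rose, 1 fell and 3 were not called, against 3.16% of all tested rows called higher (806) and 3.54% called lower (903) in dmd1. This balance depended on the scaling, with 1487 rows higher and 876 lower with equal FPKM totals, and 677 higher and 1196 lower with median-of-ratios scaling. TIP2, a bHLH factor of early tapetal differentiation, rose by 1.79 ± 0.14 log2 units (limma adjusted p = 0.00326) and was called in every alternative fit. EAT1, a bHLH factor that promotes tapetal death, was at 106, 57.8 and 19.7 FPKM in dmd1 libraries 1, 2 and 3, against 541, 536 and 428 FPKM in wild-type libraries 1, 2 and 3, and fell by 3.30 log2 units (limma adjusted p = 0.0178). Its call was lost without dmd1 library 2 (adjusted p = 0.0651), wild-type library 1 (0.0724) or wild-type library 3 (0.0568). GAMYB, a gibberellin-regulated MYB factor, and UDT1, an early bHLH factor, had log2 changes of -0.31 ± 0.21 and 0.08 ± 0.13, neither of them called, and the sign of UDT1 turned with median-of-ratios scaling. TDR, the bHLH factor that TIP3 binds, changed by -0.07 ± 0.19 log2 units, which did not pass (limma adjusted p = 0.828).

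Exine lipid genes, whose Arabidopsis counterparts include targets of MYB80, were mostly called lower in dmd1, while MYB80 itself was not called. Of 9 tested genes, 7 fell, none rose and 2 were not called, where 3.54% of all tested rows were called lower. They had a median log2 change of -2.59 against 0.12 over all rows. This list, like the other lists, was chosen with earlier results of these data known. Its contrast with all rows is therefore not independent evidence. The P450 genes CYP704B2 and CYP703A3, which hydroxylate fatty acids, fell by 2.91 and 2.22 log2 units, the polyketide synthase gene PKS1 fell by 2.21, and the lipid transfer protein gene C4 fell by 3.39 (limma adjusted p = 0.00794, 0.0137, 0.0098 and 0.0189 for CYP704B2, CYP703A3, PKS1 and C4). CYP704B2 was called in every alternative fit. Without dmd1 library 2, CYP703A3 (adjusted p = 0.0507) and C4 (0.0812) were lost. Without wild-type library 1, CYP703A3 (0.0613), PKS1 (0.0503) and C4 (0.0764) were lost. CYP703A3 was also lost without wild-type library 3 (0.0515) and C4 without dmd1 library 3 (0.0522).

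Among 5 tested genes of tapetal breakdown, 1 fell and 4 were not called, beside 3.54% of all tested rows called lower. AP25, which encodes an aspartic protease and is activated by EAT1, fell by 5.16 log2 units (limma adjusted p = 0.0343). The call did not hold without dmd1 library 2 (adjusted p = 0.0903), wild-type library 1 (0.103), wild-type library 2 (0.0759) or wild-type library 3 (0.0879), and with no filter on low values (0.0558). AP37, the other aspartic protease gene under EAT1, differed by -2.05 ± 0.73 log2 units (limma adjusted p = 0.113) and was called with library weights alone (adjusted p = 0.0156). API5, whose animal counterpart inhibits cell death, and MTR1, a secreted glycoprotein gene, differed by 0.30 ± 0.18 and -0.72 ± 0.63 log2 units without a call. MTR1 was called with library weights (log2 change -1.34, limma adjusted p = 0.0442). The direction in which rice API5 acts on cell death was not examined here.

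The sugar genes beside CSA gave 1 rise and 1 fall among 6 tested of 8 listed, beside 3.16% of all rows called higher and 3.54% called lower. The row listed as MST8, the known target of CSA, was at 0.199 FPKM or less in every library and was not tested, and SUT3 was listed at 0 in all 6. No change of this row could therefore be measured in these libraries. Whether the row is MST8 was not checked, so the level of MST8 itself remains unknown here. MST6, another monosaccharide transporter gene, was at 217, 111 and 31.9 FPKM in dmd1 libraries 1, 2 and 3, against 522, 861 and 595 FPKM in wild-type libraries 1, 2 and 3, and fell by 2.79 log2 units (limma adjusted p = 0.0418). INV4, a cell wall invertase gene, rose by 1.16 log2 units (limma adjusted p = 0.0225). It was low, at 5.76, 5.32 and 3.73 FPKM in dmd1 libraries 1, 2 and 3, against 1.405, 2.22 and 1.32 FPKM in wild-type libraries 1, 2 and 3. With the stricter filter INV4 was not tested. The call of MST6 was lost without dmd1 library 2 (adjusted p = 0.109) or wild-type library 1 (0.108), 2 (0.0902) or 3 (0.109), with no filter (0.0663) and with the replicate block (0.0627). That of INV4 was lost without dmd1 library 1 (0.0656) or 2 (0.0888) or wild-type library 1 (0.0874) or 3 (0.0789). The sucrose transporter gene SUT1 and the invertase gene CIN2 differed by 0.90 ± 0.27 and -0.64 ± 0.20 log2 units without a call, though SUT1 was called with equal FPKM totals (1.08) and without wild-type library 2 (1.12).

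**Figure D4:**
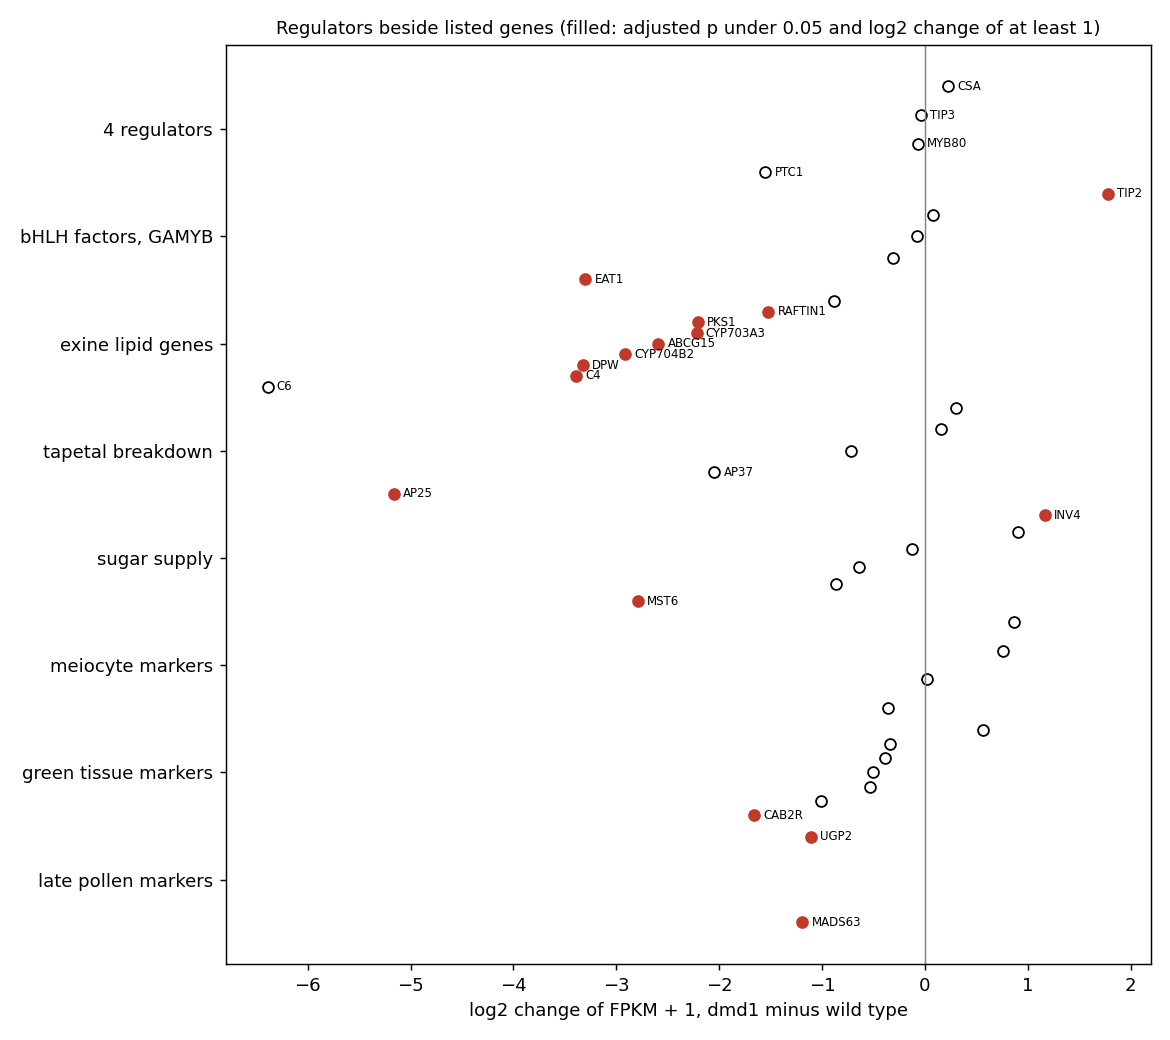
Log2 change of FPKM + 1, dmd1 minus wild type, of each tested gene of the listed groups, with 1 row of points per group and filled points for called genes. The 4 regulators are open points, 3 of them near 0, while 7 of the 9 exine lipid genes are filled and lie between -3.39 and -1.52. C6, a lipid transfer protein gene at -6.39, was not called.

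Likeness to each regulator was measured as the root mean square difference over the 6 libraries between log2 profiles, each centred on its own mean, so that 0 is an identical profile. The points share libraries and scaling, and genotype differences enter the measure. It is not scaled to a gene's own spread, so the share of nearer rows depends on that spread. These shares therefore cannot be compared between regulators. Candidates were the 28 other tested genes among the regulators, the bHLH and GAMYB list, and the exine lipid, tapetal breakdown and sugar lists; genes of the meiocyte, green tissue and late pollen lists were not candidates. Among these 28 the nearest to PTC1 was AP37, with a difference of 0.414 log2 units, and 28 of all 25473 other tested rows (0.11%) were nearer. Few rows vary as much as PTC1, whose residual SD was exceeded by 1.82% of rows. AP37 was at 602, 290 and 72.8 FPKM in dmd1 libraries 1, 2 and 3, against 819, 1271 and 875 FPKM in wild-type libraries 1, 2 and 3. For PTC1 and AP37 alike, wild-type library 2 was the highest and dmd1 library 3 the lowest of the 6. The next nearest candidates were ACOS12, an acyl-CoA synthetase gene of sporopollenin synthesis (0.579), and ABCG15, a transporter gene of exine and cuticle lipids (0.628).

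The pattern of the end libraries, chosen after its values were seen, was more common than PTC1 alone. Wild-type library 2 was the highest and dmd1 library 3 the lowest in 3596 of all 25474 tested rows (14.1%), in 5 of 9 exine lipid genes and in 2 of 5 genes of tapetal breakdown. These libraries also had the largest (1287424, wild-type library 2) and the smallest (808227, dmd1 library 3) FPKM totals. The part of the totals in this pattern, also for PTC1 and AP37, was not tested. Dmd1 library 3 was the lowest of the dmd1 libraries in all 9 exine lipid genes and all 6 tested sugar genes, but in 1 of 7 green tissue genes and 1 of 4 meiocyte genes, against 53.2% of all tested rows. It was not the lowest of the dmd1 libraries for CSA or TIP3, where it was the highest.

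MYB80 was nearest to TDR (0.113), then to TIP3 (0.133) and UDT1 (0.137), and 159 of all other tested rows (0.624%) were nearer to MYB80 than TDR. TIP3 was nearest to UDT1 (0.129), then to MYB80 and TDR (0.153). These profiles were nearly flat, with a range over the 6 libraries of 0.36 log2 units for MYB80 and 0.24 for TIP3. CSA was nearest to GAMYB among the candidates, at 0.297, with 17.2% of all other rows nearer, followed by UDT1 (0.305) and TIP3 (0.344). This difference was smaller than the 0.414 between PTC1 and AP37, although a larger share of rows was nearer. The regulators furthest apart were CSA and PTC1, at 1.41.

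**Figure D5:**
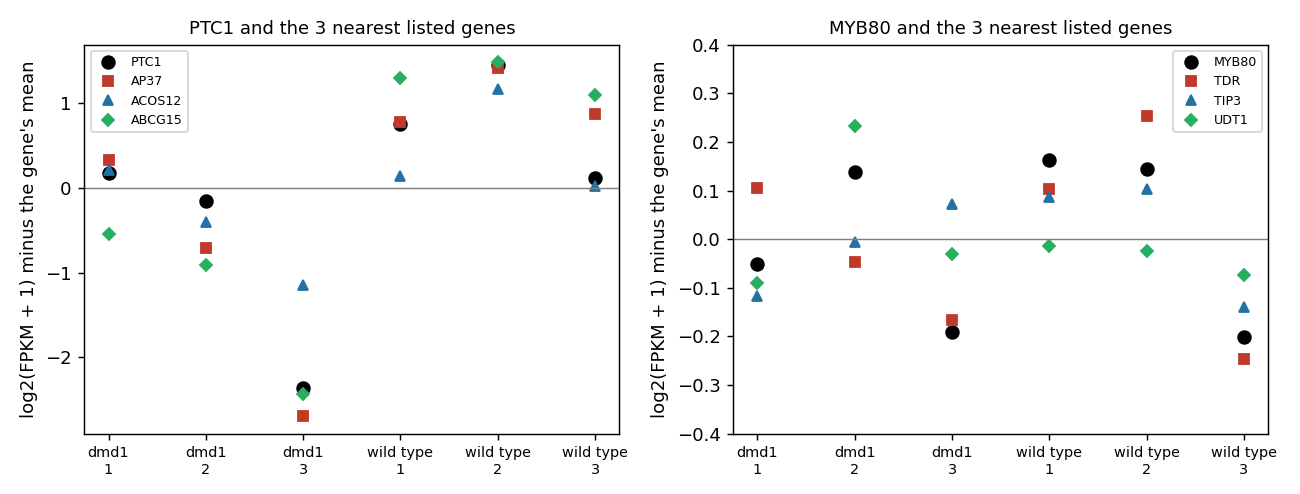
Log2(FPKM + 1) minus the gene's own mean in each of the 6 libraries, for PTC1 with its nearest candidates AP37, ACOS12 and ABCG15 (left) and for MYB80 with TDR, TIP3 and UDT1 (right). The vertical scales differ, since PTC1 spans 3.81 log2 units and MYB80 0.36. PTC1 and AP37 are both highest in wild-type library 2 and lowest in dmd1 library 3.

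The 4 tapetal markers were detected in every library, though C6 only at 2.39 FPKM in dmd1 library 3. Of the 4, 2 were called lower in dmd1, beside 3.54% of all tested rows. CYP703A3, RAFTIN1 and C6 are also in the exine lipid list, so their results are already counted there. TDR was at no less than 759 FPKM in any library and was not called. CYP703A3 averaged 1130 ± 440 FPKM in dmd1 and 4946 ± 216 FPKM in wild type, and fell as given above. RAFTIN1, a tapetal BURP domain gene, averaged 264 ± 51.5 FPKM in dmd1 and 780 ± 279.7 FPKM in wild type (SD, n = 3 each) and fell by 1.52 log2 units (limma adjusted p = 0.023). The RAFTIN1 call did not hold without dmd1 library 2 (adjusted p = 0.0841) or 3 (0.0606) or wild-type library 1 (0.058) or 3 (0.0631). C6, the remaining tapetal marker, was at 2039, 360 and 2.39 FPKM in dmd1 libraries 1, 2 and 3, against 9472, 14190 and 10935 FPKM in wild-type libraries 1, 2 and 3. The genotypes did not overlap for C6, as for 38.4% of all tested rows. Its log2 change was -6.39 ± 2.18, which was not called (limma adjusted p = 0.103).

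Markers of other cells were called in part. The summed level of 8 green tissue genes ran from 209 to 281 FPKM in dmd1 and from 303 to 508 FPKM in wild type. Among 7 tested, 1 fell and 6 were not called, beside 3.54% of all tested rows called lower. CAB2R, a chlorophyll-binding protein gene, was the fall (log2 change -1.66, limma adjusted p = 0.0223), lost without dmd1 library 1 (0.0657) or 2 (0.0865) or wild-type library 1 (0.0713) or 3 (0.0739). Its relative CAB1R was called with the replicate block (-1.01, adjusted p = 0.0416) and with library weights (-1.61, adjusted p = 0.00594). The photosystem gene PSAD was under the adjusted p limit without reaching the fold (log2 change -0.51, limma adjusted p = 0.0445), and its adjusted p was between 0.1 and 0.148 without dmd1 library 1, 2 or 3 or wild-type library 1 or 3. The limma adjusted p of PSAD was also over 0.05 with equal FPKM totals (0.338), quantile normalization (0.193), the replicate block (0.106) and no filter (0.0608). It was at the limit with eBayes without trend and robust options (0.0504) and without wild-type library 2 and dmd1 library 1 together (0.0501). RBCS3 went the other way, at 0.57 ± 0.30 log2 units, and was not called (limma adjusted p = 0.247). Of the 7 tested green tissue genes, 6 had a log2 change below 0.

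The summed level of 5 late pollen genes ran from 37.3 to 68.7 FPKM in dmd1 and from 104 to 156 FPKM in wild type. Only 2 of the 5 were tested and both fell, beside 3.54% of all tested rows called lower. Nearly all of that sum came from MADS63, while MADS62, MADS68 and WX stayed at or under 0.18 FPKM. UGP2 was low, at 1.17, 0.839 and 0.759 FPKM in dmd1 libraries 1, 2 and 3. In wild-type libraries 1, 2 and 3 it was at 4.32, 3.28 and 2.06 FPKM. It thus passed the filter mainly through wild type and was not tested with the stricter filter. MADS63 and UGP2 were both called lower, and each call was lost in 5 of 6 fits without 1 library (adjusted p from 0.0632 to 0.112), MADS63 in all but that without dmd1 library 1 and UGP2 in all but that without wild-type library 3. Both calls were also lost without wild-type library 2 and dmd1 library 1 together (adjusted p = 0.0531 for MADS63 and 0.0924 for UGP2), with no filter on low values (0.0582 for MADS63 and 0.0519 for UGP2) and with equal FPKM totals (log2 changes -0.99 for MADS63 and -0.98 for UGP2), and that of MADS63 with library weights (-0.94).

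The sum of 6 meiocyte genes ran from 54.6 to 58.4 FPKM in dmd1 and from 44.8 to 59.1 FPKM in wild type. None of 4 tested genes was called by limma, against 6.71% of all tested rows. Without regard to fold, 2 of them had an adjusted p under 0.05, against 13.0% of rows. These were the cohesin gene REC8 and the crossover gene HEI10, at 0.87 and 0.76 log2 units above wild type (limma adjusted p = 0.0147 for REC8 and 0.0202 for HEI10). REC8 was called with a pseudocount of 0.1 (log2 change 1.02) and with equal FPKM totals (1.04). Its adjusted p was over 0.05 without dmd1 library 2 (0.0735) or wild-type library 1 (0.0653) or 3 (0.0546). That of HEI10 was over 0.05 without dmd1 library 2 (0.0889) or 3 (0.0564) or wild-type library 1 (0.0717) or 3 (0.0761), and with the replicate block (0.0653). MEL1 and PAIR2 differed by -0.36 ± 0.20 and 0.03 ± 0.16 log2 units without a call (limma adjusted p = 0.280 and 0.931). The part of all these markers in the PTC1 values was not tested.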

How the data were processed

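Total RNA of 6 rice anther libraries was sequenced. The authors deposited 1 table of FPKM values, with 1 row per gene and 1 column per library, and the submitters' processing notes name fastp, HISAT, RSEM and the build IRGSP-1.0. Versions, annotation and strand setting: not given in the sources used here. FPKM totals ran from 808227 to 1287424, the fragment depth is unknown, and no counting interval was computed. Columns were matched to libraries by name.

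Rows with at least 1 FPKM in at least 3 libraries were tested on log2(FPKM + 1) with limma 3.58.1 in R 4.3.3 (trend and robust options, no replicate block). Fold changes on this scale understate the change of low genes. The fit was tested on simulated data. The limma p-values set the difference between genotypes against the spread between these libraries within a genotype, which limma moderates with that of other rows. Alternatives were another pseudocount (0.1), other filters, OS rows, 3 scalings, eBayes without its trend and robust options, weighted libraries, the replicate number as a block, and left-out libraries.

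The regulators and the 7 lists of 46 other genes were chosen with earlier results of these data known. Symbols were set beside identifiers from general knowledge, not checked against an annotation. Values are given for the regulators and for up to 4 genes per list with the smallest p, and for the 3 nearest listed genes of each regulator. TDR, the tapetal markers (CYP703A3, RAFTIN1, C6), MST8, SUT3, MADS62, MADS68 and WX were named as list members or markers.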

Additional observations from a re-analysis of the deposited data

How the results depend on the processing

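No alternative called any of the 4 regulators. PTC1 stayed below 0 in all 17 alternative fits. The sign of MYB80 turned with equal FPKM totals (0.13), quantile normalization (0.012) and library weights (0.12), and that of TIP3 with equal FPKM totals (0.15) and library weights (0.011). Without 1 library, or without wild-type library 2 and dmd1 library 1 together, log2 changes ran from -2.03 to -0.76 for PTC1, -0.19 to 0.0074 for MYB80, -0.03 to 0.37 for CSA and -0.11 to 0.060 for TIP3. Log2 differences of ratios ran from -0.12 to 0.085 for MYB80 to TIP3, -0.53 to 0.018 for MYB80 to CSA and -0.044 to 0.45 for CSA to TIP3. Called rows numbered 2672 with library weights and 671 to 1635 with libraries left out, against 1709. Of the 38 tested genes of the lists, 13 fell and 2 rose, beside 3.54% of all tested rows called lower and 3.16% called higher. The lists were chosen with earlier results of these data known, so this contrast is not independent evidence. Rises numbered 1 with the stricter filter and 4 with equal FPKM totals, and with libraries left out 1 to 3 rose and 1 to 11 fell. UDT1 turned with median-of-ratios scaling (-0.039) and without dmd1 library 2 (-0.023, up to 0.15 with other libraries left out), and the meiotic gene PAIR2 with median-of-ratios scaling (-0.092) and without dmd1 library 1 (-0.044), wild-type library 1 (-0.034) or wild-type library 3 (-0.051), with 0.16 as the highest value of PAIR2 with libraries left out. The cause was not tested. Fits without a library have fewer residual degrees of freedom.

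The replicate numbers are tied by no label, and deviations of same-numbered libraries correlated at -0.35, -0.01 and 0.35, so they were not taken as pairs. With the replicate block, PTC1 had a limma adjusted p = 0.086 and 1395 rows were called. Permuted within the block, the 3 ratios with PTC1 had an adjusted p = 0.5 (0.4 without it), in a design whose smallest unadjusted p is higher than without the block.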
